A study of Mus musculus with 24 samples.

Results

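Iron handling was followed through 9 genes in C2C12 cells, an established mouse myoblast line: Tfrc, Trf, Steap3, Slc11a2, Fth1, Ftl1, Slc40a1, Aco1 and Ireb2. They were taken by gene name, with no threshold on measured values, although earlier results of these data were known, and all 9 were among the 24043 gene symbols of the deposited expression table. The study kept the cells in a growth medium holding 10% fetal bovine serum, in which they were kept below confluence, or moved them to differentiation medium with 2% horse serum and an ITS supplement (insulin, transferrin and selenium), where they form myotubes. Each medium was used at 21% oxygen (normoxia) and at 2% oxygen (hypoxia), and each of the 4 groups has 2 RNA-seq libraries, A and B, that the series calls biological replicates. All groups are of this 1 cell line with no genetic change stated in the labels. The times spent at either oxygen level and in differentiation medium are not given in the sources used here. The media differ in serum, in supplement and in how densely the cells stand, and time in culture may differ too, so these cannot be told apart.

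Most cells take up iron bound to transferrin, the plasma iron carrier encoded by Trf. The transferrin receptor (Tfrc) brings it into endosomes, where the reductase Steap3 converts it to the ferrous form and the transporter Slc11a2 passes it to the cytosol. Iron that is not used is stored in shells built from ferritin heavy chains (Fth1), which oxidise it, and light chains (Ftl1), or leaves the cell through ferroportin (Slc40a1). When iron is scarce, the iron regulatory proteins encoded by Aco1 and Ireb2 bind stem-loops in messenger RNAs, which stabilises Tfrc mRNA and holds back the translation of ferritin and ferroportin. Muscle needs iron for myoglobin and for the respiratory chain. The values here are of mRNA and do not report the proteins, and for Slc11a2 the table does not separate transcripts with and without such a stem-loop.

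The summed level of 8 myoblast and myotube markers was 6745 to 6752 FPKM (fragments scaled to transcript length and library size) in normoxic differentiation medium against 344.3 to 415.8 FPKM in normoxic growth medium, 97.7 to 105.1 in hypoxic growth medium and 59.0 to 82.0 in hypoxic differentiation medium. At 2% oxygen the differentiation label was thus not matched by this sum, which lay below that of every growth medium library. The single markers did not all go that way. From hypoxic growth to hypoxic differentiation medium Myod1, Myf5 and Des were lower, Myog, Tmem8c, Myh3 and Acta1 were higher, and Ckm overlapped. Myog went from 0.342 and 0.442 to 4.49 and 2.14 FPKM, beside 2576 and 2642 in normoxic differentiation medium. The summed level of 6 hypoxia genes was 679.1 to 1183 FPKM at 21% oxygen and 3429 to 4622 FPKM at 2%. Of these, Vegfa overlapped between oxygen levels in differentiation medium, at 331.7 and 309.7 FPKM at 21% and 429.9 and 309.6 at 2%. Slc2a1, Car9, Ankrd37, Egln3 and Ldha were each higher in every library at 2% than in any at 21%. Egln3 also rose with differentiation medium in normoxia, from 25.8 and 27.4 to 213.6 and 180.5 FPKM. The hypoxic differentiation libraries stood apart from each other, with 613 tested genes more than 2-fold apart between them, against 56 to 71 in the other groups. Their summed level of 5 proliferation markers was 23.5 FPKM in A and 130.1 FPKM in B. At 21% oxygen this sum was 163.5 (A) and 185.4 (B) with growth medium and 31.9 and 32.6 with differentiation medium. The hypoxic growth libraries had 100.7 and 86.9. Hypoxic differentiation replicate B thus lay above both hypoxic growth libraries, and replicate A lay below every other library. The libraries summed to between 480018 and 534167 FPKM, and their relative depth, read from the steps between low values, ran from 0.632 to 1. Absolute depth is unknown.

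Changes are given as log2 changes in FPKM + 1 from a limma fit, each with its standard error (SE), and are called at an adjusted p under 0.05 over all 12389 genes tested. A gene was tested if its mean reached 1 FPKM in at least 1 group, which 8 of the 9 iron genes did. In normoxia, differentiation medium changed 7 of the 8, with 3 higher and 4 lower, against a background of 66.5% of all genes called (25.5% higher and 41% lower). At 2% oxygen it changed 6, with 4 higher and 2 lower (40.9% of all genes, 23.3% higher and 17.6% lower). Hypoxia changed 3 of the 8 in growth medium, with 1 higher and 2 lower (41.4% of all genes, 13.5% higher and 28% lower), and 5 in differentiation medium, with 2 higher and 3 lower (65.2% of all genes, 37.5% higher and 27.7% lower). With so many genes called throughout, the counts of 8 genes are given as a description only.

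The middle of the deposited values shifted between groups. Whether this came from the scale of the libraries or from the genes themselves was not tested. Over all tested genes, the median change on differentiation in normoxia was -0.20 (log2) as deposited and 0.03 once libraries were brought to a common scale by median-of-ratios factors, and that of hypoxia in differentiation medium was 0.15 and -0.03. The same scaling moved the calls over all genes from 3161 higher and 5080 lower to 4341 and 3755 in the former contrast and from 4644 and 3431 to 3760 and 4333 in the latter. With hypoxia in growth medium the calls went from 1672 higher and 3463 lower to 2100 and 2740, or 2380 and 2448 by upper-quartile scaling, and for the interaction of medium and oxygen from 4390 and 2317 to 2961 and 3301. Small changes are best read against these shifts. On the same scaling the split of called iron genes became 3 higher and 2 lower for differentiation in normoxia, and 1 higher and 3 lower for hypoxia in differentiation medium. Because RNA was measured in bulk, fewer cells with a transcript and less transcript per cell cannot be told apart.

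**Figure D1:**
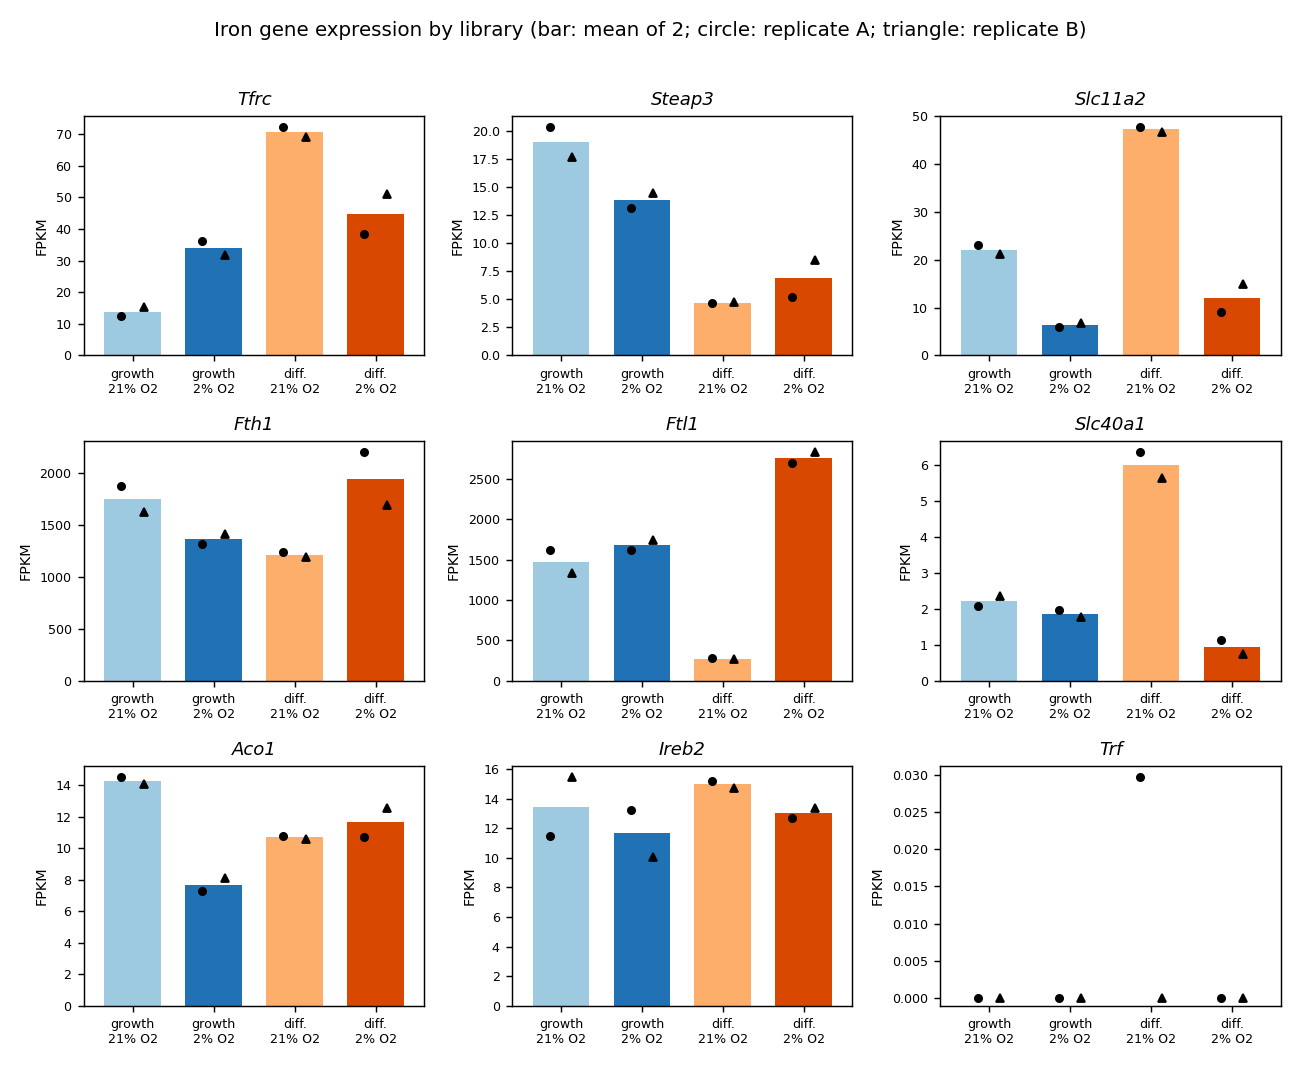
FPKM (vertical axes, linear, each panel on its own scale) of the 9 iron genes in the 4 groups; bars are means of 2 libraries, circles replicate A and triangles replicate B, and Trf is shown as points alone. Ftl1 was lowest in normoxic differentiation medium, at 268.8 and 276.4 FPKM, the group in which Tfrc, Slc11a2 and Slc40a1 were highest.

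The transferrin receptor was lowest in normoxic growth medium and rose both with differentiation medium and with hypoxia. Tfrc stood at 12.4 and 15.3 FPKM (A and B) in growth medium at 21% oxygen and 36.3 and 31.8 there at 2%, against 72.2 and 69.2 in differentiation medium at 21% and 38.3 and 50.9 there at 2%. The 4 groups did not overlap, although the hypoxic groups lay next to each other. On differentiation in normoxia Tfrc rose 5.12-fold, from 13.8 ± 2.06 to 70.7 ± 2.17 FPKM (SD, n = 2); on the log2 scale this is 2.28 ± 0.16 (adjusted p 3.29e-05). Hypoxia in growth medium raised it 2.46-fold (1.25 ± 0.16, adjusted p 0.00137). Both rises passed the threshold under each of the 14 alternative settings tried.

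At 2% oxygen the change of medium gave Tfrc a log2 change of 0.37 ± 0.16 that missed the threshold (adjusted p 0.108), although it passed without replicate A of hypoxic differentiation medium (0.57, adjusted p 0.0177). In differentiation medium Tfrc was 1.59-fold lower in hypoxia (-0.67 ± 0.16, adjusted p 0.0091), a call that was lost without replicate A of normoxic differentiation medium (adjusted p 0.0577). Hypoxia thus went with more receptor mRNA in growth medium and with less in differentiation medium. The test of that difference, the interaction of medium and oxygen, gave -1.91 ± 0.22 (adjusted p 0.00062), and it was negative in each letter, -2.38 for A and -1.45 for B. The labels do not say that libraries of the same letter belong together, and another matching of libraries would give other values by letter. The interaction was called for 6 of the 8 iron genes, 4 positive and 2 negative, beside 54.1% of all genes (35.4% positive and 18.7% negative), and for 2 positive and 2 negative after median-of-ratios scaling.

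The upstream sequence of Tfrc is shown because this receptor gene rose in hypoxic growth medium, and those of Ftl1 and Fth1 because the ferritin genes behaved differently. RefSeq windows on build GRCm38.p6, of 250 bases before to 50 after a start, were at hand for 6 of the 9 genes, 11 windows in all. They were searched on both strands for the core letters bound by hypoxia-inducible factors. These are ACGTG, called the A form here, which is found on both strands where it follows a C. The other spelling, called the G form, is GCGTG. Of the 11 windows 5 held either motif, beside 43.8% of all 32851 windows (19.6% with the A form and 32.4% with the G form). The A form was in both windows of Tfrc and in no window of Fth1, Ftl1, Aco1, Ireb2 or Steap3. Both Tfrc windows also held the G form at 2 positions, and it was found at 1 position each in the Ftl1 window, in 1 of 2 Fth1 windows and in 1 of 4 Steap3 windows. The windows of Aco1 and Ireb2 held neither motif. A match describes letters and not a bound site. Below, the 250 bases before a start are printed 5′ to 3′ on the gene's strand, with motif letters of either strand in capitals where the whole motif lies in the printed bases, followed by 30 bases common to both Tfrc windows with the A form in capitals.
Tfrc, plus strand, chr16:32608646-32608895: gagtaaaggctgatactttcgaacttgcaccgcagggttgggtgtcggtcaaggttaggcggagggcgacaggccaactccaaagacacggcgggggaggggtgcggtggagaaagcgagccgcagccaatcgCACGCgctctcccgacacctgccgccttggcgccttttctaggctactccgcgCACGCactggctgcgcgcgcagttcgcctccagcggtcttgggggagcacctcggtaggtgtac
Tfrc, plus strand, chr16:32608872-32608901: gggggagcacctcggtaggtgtACGTGcgg
Ftl1, minus strand, chr7:45459887-45460136: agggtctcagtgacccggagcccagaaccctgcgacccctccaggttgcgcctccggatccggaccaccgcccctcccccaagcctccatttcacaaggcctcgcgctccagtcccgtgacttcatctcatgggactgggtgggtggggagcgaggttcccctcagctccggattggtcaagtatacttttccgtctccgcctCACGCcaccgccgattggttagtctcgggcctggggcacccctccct
Fth1, plus strand, chr19:9982396-9982645: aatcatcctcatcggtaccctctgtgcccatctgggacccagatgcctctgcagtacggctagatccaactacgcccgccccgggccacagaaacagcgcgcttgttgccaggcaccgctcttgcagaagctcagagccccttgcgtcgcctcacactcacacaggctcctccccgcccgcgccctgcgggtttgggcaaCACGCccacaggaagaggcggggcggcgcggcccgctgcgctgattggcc

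A second search looked for the loop core of the iron-responsive element on both strands. It matched 1 of the 11 windows, a Tfrc window on the reverse strand, beside 19.6% of all windows. That match began at position -61, before the start and on the other strand, so its letters are not in the transcript from that start. These windows end 50 bases into the transcript, and no match says only that the letters are not in them.

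Transferrin itself was almost absent from the RNA. Trf was listed at 0 in 7 of the 8 libraries and at 0.0297 FPKM in normoxic differentiation replicate A. It was therefore not tested. The transferrin of the ITS supplement is protein and is not measured by these values.

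The endosomal reductase moved against the receptor on differentiation. Steap3 was 20.3 and 17.7 FPKM in growth medium at 21% oxygen and 13.1 and 14.4 there at 2%, against 4.68 and 4.73 in differentiation medium at 21% and 5.20 and 8.49 there at 2%. Every growth medium library was above every differentiation medium library. The fall with differentiation medium was 4.04-fold in normoxia (-1.81 ± 0.20, adjusted p 0.000242) and 2.02-fold in hypoxia (-0.95 ± 0.20, adjusted p 0.0103). The second call was lost without replicate B of hypoxic growth medium (adjusted p 0.0698) and with only the libraries compared in the fit (adjusted p 0.0694). The log2 change with hypoxia was -0.43 ± 0.20 in growth medium (adjusted p 0.123) and 0.43 ± 0.20 in differentiation medium (adjusted p 0.0963). Of 14 alternatives, 3 brought the first of these changes past the threshold and 1 the second. Leaving out a single hypoxic differentiation library brought these past the threshold, the first without either one (adjusted p 0.0101 without A and 0.00915 without B) and the second without A (0.73, adjusted p 0.00181). The interaction of 0.86 ± 0.28 (adjusted p 0.0373) passed under 4 of 13 alternatives and was 0.55 without replicate B of hypoxic differentiation medium.

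The endosomal iron transporter Slc11a2 followed both conditions with the same order in each. It was 23.0 and 21.3 FPKM in growth medium at 21% oxygen and 5.96 and 6.81 there at 2%, against 47.7 and 46.7 in differentiation medium at 21% and 9.10 and 15.0 there at 2%. The 4 groups did not overlap. Hypoxia lowered it 3.47-fold in growth medium (-1.65 ± 0.20, adjusted p 0.00117) and 3.92-fold in differentiation medium (-1.92 ± 0.20, adjusted p 0.000209). Differentiation medium raised it 2.13-fold in normoxia (1.06 ± 0.20, adjusted p 0.00337). Slc11a2 and Tfrc, which act in the same uptake route, thus rose together on differentiation in normoxia but went opposite ways with hypoxia in growth medium.

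In hypoxia the rise of Slc11a2 with differentiation medium was 1.89-fold (0.78 ± 0.20, adjusted p 0.0223), or 0.45 without replicate B of hypoxic differentiation medium and 1.11 without replicate A. That call was lost without replicate A or B of hypoxic growth medium (adjusted p 0.116 and 0.0738), without A or B of normoxic differentiation medium (adjusted p 0.0536 and 0.0549) and with only the libraries compared (adjusted p 0.111). The interaction was -0.28 ± 0.29 (adjusted p 0.442). It was -0.61 without replicate B (adjusted p 0.00862) and 0.054 without replicate A (adjusted p 0.736) of hypoxic differentiation medium, so these libraries decided it.

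**Figure D2:**
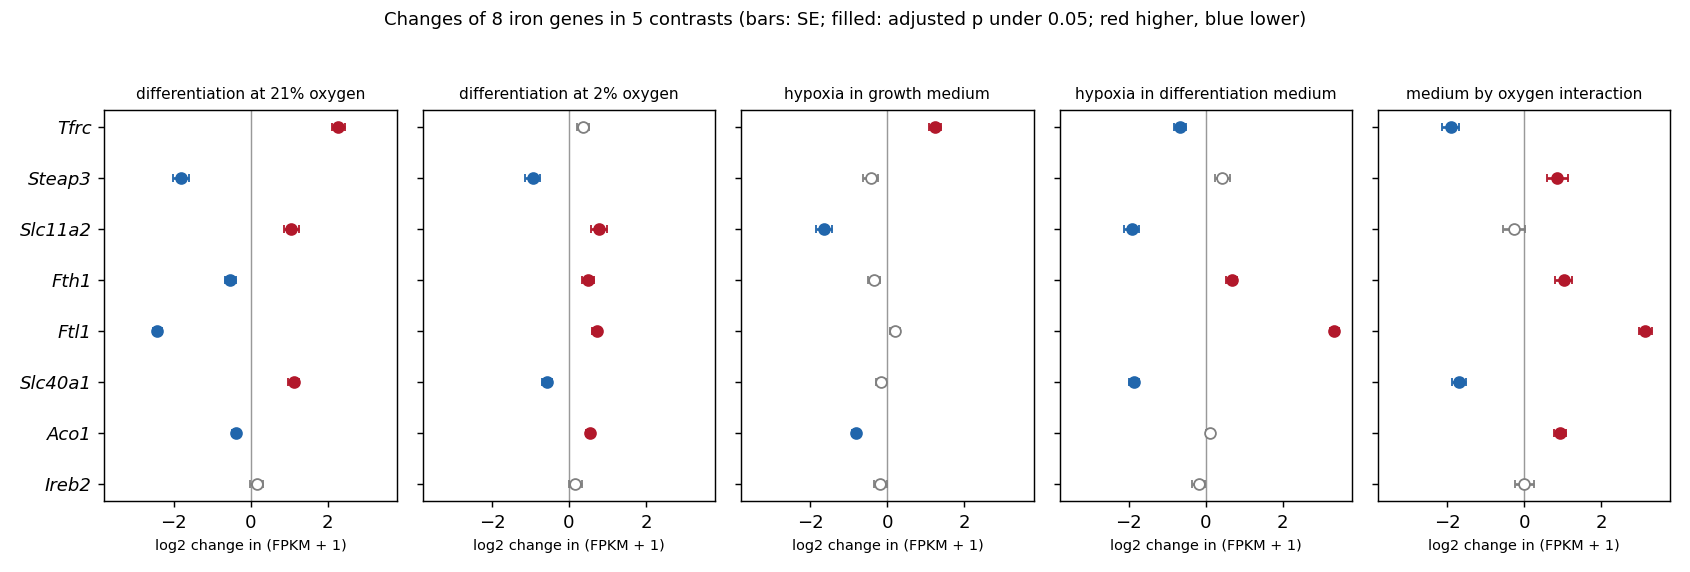
Log2 changes in FPKM + 1 (horizontal axes) of the 8 tested iron genes in each of the 5 contrasts; bars are SE, filled points passed an adjusted p of 0.05 (red higher, blue lower) and open points did not. In the interaction panel, a positive value is a more positive change with differentiation medium at 2% than at 21% oxygen. Ftl1 ran from -2.42 on differentiation in normoxia to 3.34 with hypoxia in differentiation medium.

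Ferritin mRNAs were by far the most abundant of the 9, and the light chain was the more variable. Ftl1 was 1616 and 1328 FPKM in growth medium at 21% oxygen and 1615 and 1743 there at 2%, against 276.4 and 268.8 in differentiation medium at 21% and 2698 and 2830 there at 2%. The growth medium groups overlapped, the normoxic differentiation libraries lay far below them and the hypoxic differentiation libraries above. On differentiation in normoxia Ftl1 fell 5.40-fold, from 1472 ± 203.6 to 272.6 ± 5.36 FPKM (SD, n = 2), which is -2.42 ± 0.12 on the log2 scale (adjusted p 8.24e-06). At 2% oxygen the same change of medium raised it 1.65-fold (0.72 ± 0.12, adjusted p 0.00465). In differentiation medium it was therefore 10.1-fold higher in hypoxia than in normoxia (3.34 ± 0.12, adjusted p 1.93e-06), whereas in growth medium the log2 change with hypoxia was 0.20 ± 0.12 (adjusted p 0.237). The interaction was 3.14 ± 0.17 (adjusted p 2.77e-05). These 4 calls of Ftl1 passed under every alternative tried.

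The heavy chain moved less. Fth1 was 1871 and 1622 FPKM in growth medium at 21% oxygen and 1314 and 1412 there at 2%, against 1239 and 1187 in differentiation medium at 21% and 2199 and 1691 there at 2%. The hypoxic differentiation range enclosed the higher normoxic growth library, and the other 3 groups did not overlap each other. Its fall on differentiation in normoxia was 1.44-fold (-0.52 ± 0.15, adjusted p 0.0206). This call was lost under both other scalings of the libraries, with -0.25 (adjusted p 0.313) by median-of-ratios and -0.39 (adjusted p 0.125) by upper quartiles, as it was on leaving out replicate A of normoxic growth medium (adjusted p 0.102) or either normoxic differentiation library (adjusted p 0.083 without A and 0.113 without B).

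At 2% oxygen Fth1 was 1.43-fold higher in differentiation medium (0.50 ± 0.15, adjusted p 0.0387), which passed under 5 of 14 alternatives and was 0.31 without replicate A of hypoxic differentiation medium (adjusted p 0.0756). The alternatives that ended the call included leaving out either hypoxic growth library (adjusted p 0.182 without A and 0.124 without B) or either normoxic differentiation library (0.0853 and 0.0865). In differentiation medium Fth1 was 1.60-fold higher in hypoxia (0.67 ± 0.15, adjusted p 0.00752). That call was lost under median-of-ratios factors (adjusted p 0.0806) and without replicate B of normoxic differentiation medium (adjusted p 0.0582). In growth medium the change with hypoxia was -0.35 ± 0.15 (adjusted p 0.106), and it passed without either hypoxic differentiation library (adjusted p 0.0257 and 0.0234). The interaction of 1.02 ± 0.22 (adjusted p 0.00719) had the sign of that of Ftl1 and was lost after both scalings (adjusted p 0.0794 and 0.0511).

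The makeup of ferritin mRNA therefore differed between groups. The ratio of Ftl1 to Fth1 FPKM within a library was 0.863 and 0.818 in growth medium at 21% oxygen and 1.23 and 1.23 there at 2%, against 0.223 and 0.226 in differentiation medium at 21% and 1.23 and 1.67 there at 2%. Light chain mRNA exceeded heavy chain mRNA in all 4 hypoxic libraries and in no normoxic library. The ratio does not depend on how libraries are scaled, and it was not tested. Both chains together took 0.615% to 0.663% of all FPKM in normoxic growth medium, 0.563% to 0.591% in hypoxic growth medium, 0.297% to 0.309% in normoxic differentiation medium and 0.887% to 0.935% in hypoxic differentiation medium. Both genes have processed pseudogenes in the mouse genome, and how reads shared with these were assigned is not stated, so their levels carry that uncertainty.

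**Figure D3:**
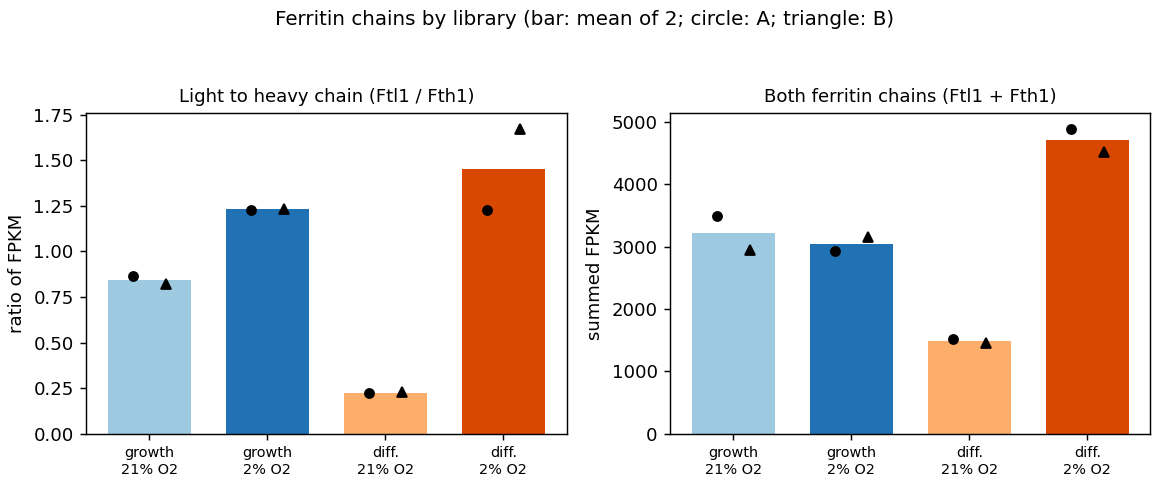
Ratio of Ftl1 to Fth1 FPKM (left) and their summed FPKM (right) in the 4 groups, on linear axes from 0; bars are means of 2 libraries, circles replicate A and triangles replicate B. The normoxic differentiation libraries were lowest in both, with ratios of 0.223 and 0.226.

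Macrophages hold much ferritin, so macrophage markers were read beside it. Of 5 such markers 4 were above 0 in some library, and their summed level was 25.8 to 42.9 FPKM in hypoxic differentiation medium and 1.86 to 3.62 FPKM in the other groups. Nearly all of it was Cd68, a lysosomal protein that other cells also make, at 25.8 and 42.8 FPKM in hypoxic differentiation medium. The defining markers were at or near 0: Emr1 was at 0 in all libraries, Ptprc was at most 0.0137 FPKM and Csf1r at most 0.167 FPKM. Of 6 erythroid markers 4 were above 0, and their sum was at most 3.91 FPKM, in hypoxic differentiation replicate B. The hepatocyte and adipocyte lists summed to at most 0.817 and 1.18 FPKM, with Alb, Plin1 and Lep at 0.

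The iron exporter ferroportin was scarce and highest in normoxic myotube cultures. Slc40a1 was 2.09 and 2.37 FPKM in growth medium at 21% oxygen and 1.96 and 1.76 there at 2%, against 6.36 and 5.64 in differentiation medium at 21% and 1.13 and 0.729 there at 2%. The groups did not overlap. Differentiation medium raised it 2.69-fold in normoxia (1.12 ± 0.13, adjusted p 0.000387). It was 2.01-fold lower in differentiation medium at 2% oxygen (-0.58 ± 0.13, adjusted p 0.0156), a call that was lost without either hypoxic growth library (adjusted p 0.0927 without A and 0.0625 without B) and with only the libraries compared (adjusted p 0.0582). At a pseudocount of 0.1 that change was -0.96, since FPKM + 1 understates changes at such low levels.

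In differentiation medium Slc40a1 was 6.47-fold lower in hypoxia (-1.87 ± 0.13, adjusted p 3.74e-05). In growth medium the log2 change was -0.17 ± 0.13 (adjusted p 0.34). The interaction was -1.69 ± 0.19 (adjusted p 0.000518), negative in each letter (-1.73 for A and -1.65 for B), and it passed under all 13 alternatives. Ferroportin and ferritin light chain mRNA thus were called in opposite directions with differentiation medium at each oxygen level and with hypoxia in differentiation medium.

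Of the iron regulatory proteins, the 1 that doubles as cytosolic aconitase changed and the other was not called. Aco1 was 14.5 and 14.1 FPKM in growth medium at 21% oxygen and 7.26 and 8.13 there at 2%, against 10.8 and 10.6 in differentiation medium at 21% and 10.7 and 12.6 there at 2%. The growth medium groups lay at the extremes and the differentiation medium groups overlapped between them. Hypoxia lowered Aco1 1.85-fold in growth medium (-0.81 ± 0.11, adjusted p 0.00148), and the call passed under all 14 alternatives. In differentiation medium the change with hypoxia was 0.11 ± 0.11 (adjusted p 0.384) and turned to -0.080 under median-of-ratios scaling. The interaction was 0.93 ± 0.15 (adjusted p 0.00242), past the threshold under all 13 alternatives.

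With differentiation medium, Aco1 fell 1.34-fold in normoxia (-0.39 ± 0.11, adjusted p 0.0162) and rose 1.51-fold in hypoxia (0.54 ± 0.11, adjusted p 0.00839). The fall was lost under median-of-ratios factors (-0.13, adjusted p 0.249) and without replicate A of normoxic growth medium (adjusted p 0.0649) or either normoxic differentiation library (adjusted p 0.0728 and 0.0856). The rise was lost without replicate A of hypoxic growth medium (adjusted p 0.0647) and with only the libraries compared (adjusted p 0.0643).

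Ireb2 was 11.5 and 15.4 FPKM in growth medium at 21% oxygen and 13.2 and 10.1 there at 2%, against 15.2 and 14.8 in differentiation medium at 21% and 12.7 and 13.4 there at 2%. The 2 growth medium groups overlapped each other and the differentiation range. None of its 5 contrasts was called, here or under any alternative, and its log2 changes lay between -0.19 and 0.16. The interaction was 0.00 ± 0.24 (adjusted p 0.99), with the replicates on opposite sides (-0.43 from A and 0.44 from B). The Ireb2 protein is known to be controlled by its degradation, which mRNA does not report.

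By level, Ftl1 and Fth1 stood above the other 7 genes in every group. Fth1 was above Ftl1 by group mean in both normoxic groups, and Ftl1 was above Fth1 in both hypoxic groups. Below them the order changed with condition. In normoxic growth medium Slc11a2 (22.1 ± 1.21 FPKM) and Steap3 (19.0 ± 1.86) led, and the ranges of Aco1, Tfrc and Ireb2 overlapped at means of 13.5 to 14.3 FPKM. In the other 3 groups Tfrc came next after the ferritins. Slc40a1 was lowest of the 8 tested genes in 3 groups, and in normoxic differentiation medium Steap3 was below it.

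Other genes of iron handling, 58 written in 5 lists with earlier results of this series known, were then counted; 55 were in the table and 46 were tested. On differentiation in normoxia 19 rose and 15 fell (26 and 10 after median-of-ratios scaling), with a median log2 change of 0.22 beside -0.20 for all genes. At 2% oxygen 16 rose and 10 fell, with a median of 0.16 beside 0.07. With hypoxia 4 rose and 18 fell in growth medium (7 and 14 after upper-quartile scaling; median -0.26 beside -0.14), and 13 rose and 20 fell in differentiation medium (7 and 27 after median-of-ratios scaling; median -0.29 beside 0.15). The interaction was positive for 14 and negative for 13, or 3 and 16 after median-of-ratios scaling. The shares called were 73.9%, 56.5%, 47.8%, 71.7% and 58.7% in this order, against 66.5%, 40.9%, 41.4%, 65.2% and 54.1% of all genes. Without replicate B of hypoxic differentiation medium the counts at 2% oxygen were 15 higher and 10 lower, and those of hypoxia in differentiation medium 13 and 21.

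Among 9 tested genes of uptake and import, 5 rose and 3 fell on differentiation in normoxia, and 5 fell and none rose with hypoxia in differentiation medium. Over all genes the shares were 25.5% higher and 41% lower in the former contrast and 37.5% higher and 27.7% lower in the latter. Scara5, a receptor for ferritin, was 4.65 and 4.31 FPKM in normoxic growth medium and 60.7 and 64.3 in hypoxic growth medium, a log2 change of 3.53 ± 0.58 (adjusted p 0.00366). It was the largest rise of these lists in that contrast. In hypoxic differentiation medium its libraries were far apart, at 54.5 and 12.1 FPKM. Steap2, a metalloreductase, fell with differentiation medium in hypoxia from 7.57 and 7.12 to 2.93 and 2.37 FPKM (-1.20 ± 0.14, adjusted p 0.00126). Its fall with that medium in normoxia was of like size (-1.25 ± 0.14, adjusted p 0.000255). Slc22a17, a receptor for the siderophore-binding protein lipocalin, fell with hypoxia in growth medium from 8.67 and 7.10 to 3.54 and 2.60 FPKM (-1.13 ± 0.19, adjusted p 0.00407).

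Of 5 tested genes of storage, chaperoning and export oxidation, 2 rose and 2 fell on differentiation in normoxia (3 and 2 after median-of-ratios scaling), beside 25.5% and 41% of all genes. Ceruloplasmin (Cp), a ferroxidase that works with ferroportin, fell from 48.7 and 54.6 to 20.5 and 19.4 FPKM (-1.33 ± 0.18, adjusted p 0.000651). Its relative Hephl1 was at most 0.0269 FPKM in the other 3 groups and 12.2 and 12.4 FPKM in normoxic differentiation medium (3.71 ± 0.08, adjusted p 3.03e-07), and it was as low again in hypoxia (-3.70 ± 0.08, adjusted p 2.62e-07; interaction -3.70 ± 0.12, adjusted p 2.91e-06). The pseudocount sets the size of these values: at 0.1 they were 6.73, -6.67 and -6.64. The ferroxidase relative thus appeared in the same group as the peak of ferroportin, while ceruloplasmin was lowest there.

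Of 5 tested genes of sensing and hepcidin control, 3 rose and 1 fell on differentiation in normoxia, and 1 rose and 3 fell with hypoxia in differentiation medium, where 66.5% and 65.2% of all genes were called. With median-of-ratios factors these counts were 4 and 0, and 1 and 4. Hemojuvelin, listed as Hfe2 and known to be made in skeletal muscle, was 87.1 and 86.0 FPKM in normoxic differentiation medium and at most 0.316 FPKM in the other 3 groups. Its log2 change was 6.06 ± 0.10 on differentiation in normoxia (adjusted p 1.82e-07) and -6.25 ± 0.10 with hypoxia in differentiation medium (adjusted p 1.4e-07), with an interaction of -5.87 ± 0.15 (adjusted p 2.02e-06). The 8 muscle markers rose and fell in the same libraries, and their part in these changes was not tested.

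Of 15 tested genes of mitochondrial iron and iron-sulfur clusters, 9 fell and 1 rose with hypoxia in growth medium (8 and 1, or 7 and 1, under the other scalings), beside 28% lower and 13.5% higher over all genes. The cluster scaffold Iscu fell there from 54.9 and 53.7 to 21.0 and 23.3 FPKM (-1.26 ± 0.10, adjusted p 0.000256). In differentiation medium 8 of the 15 were lower in hypoxia and 2 higher (12 and none after median-of-ratios scaling), beside 27.7% and 37.5% of all genes. With differentiation medium at 2% oxygen, Bola3, which helps to hand clusters on, rose from 16.5 and 18.2 to 59.1 and 52.5 FPKM (1.63 ± 0.12, adjusted p 0.000381). Bola3 also rose on differentiation in normoxia, from 34.8 and 32.2 to 59.1 and 73.2 FPKM (0.95 ± 0.12, adjusted p 0.000552). The mitochondrial iron importer Slc25a28 fell with differentiation medium at 2% oxygen from 10.2 and 11.8 to 4.86 and 6.51 FPKM (-0.85 ± 0.14, adjusted p 0.00471).

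Of 12 tested genes of heme synthesis, breakdown and transport, 7 were higher and 2 lower in hypoxic than in normoxic differentiation medium (5 and 3 after median-of-ratios scaling), beside 37.5% and 27.7% of all genes. Heme oxygenase (Hmox1), which frees iron from heme, was 53.1 and 42.2 FPKM in growth medium at 21% oxygen and 70.5 and 72.7 there at 2%, against 51.6 and 55.8 in differentiation medium at 21% and 238.6 and 172.5 there at 2%. It was thus highest in the group with the most ferritin light chain mRNA. Its log2 change was 1.49 ± 0.17 with differentiation medium at 2% oxygen (adjusted p 0.00126) and 1.90 ± 0.17 with hypoxia in differentiation medium (adjusted p 0.000101). The endosomal heme transporter Slc48a1 was, like Ftl1, lowest in normoxic differentiation medium, at 15.9 and 14.8 FPKM against 37.4 to 55.4 elsewhere. It fell on differentiation in normoxia (-1.66 ± 0.15, adjusted p 0.000114) and was higher in hypoxia in that medium (1.55 ± 0.15, adjusted p 0.000158; interaction 1.93 ± 0.22, adjusted p 0.000521).

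Coproporphyrinogen oxidase (Cpox), an enzyme of heme synthesis that uses oxygen, rose with hypoxia in growth medium from 4.91 and 6.43 to 16.8 and 15.4 FPKM (1.36 ± 0.17, adjusted p 0.00137).

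**Figure D4:**
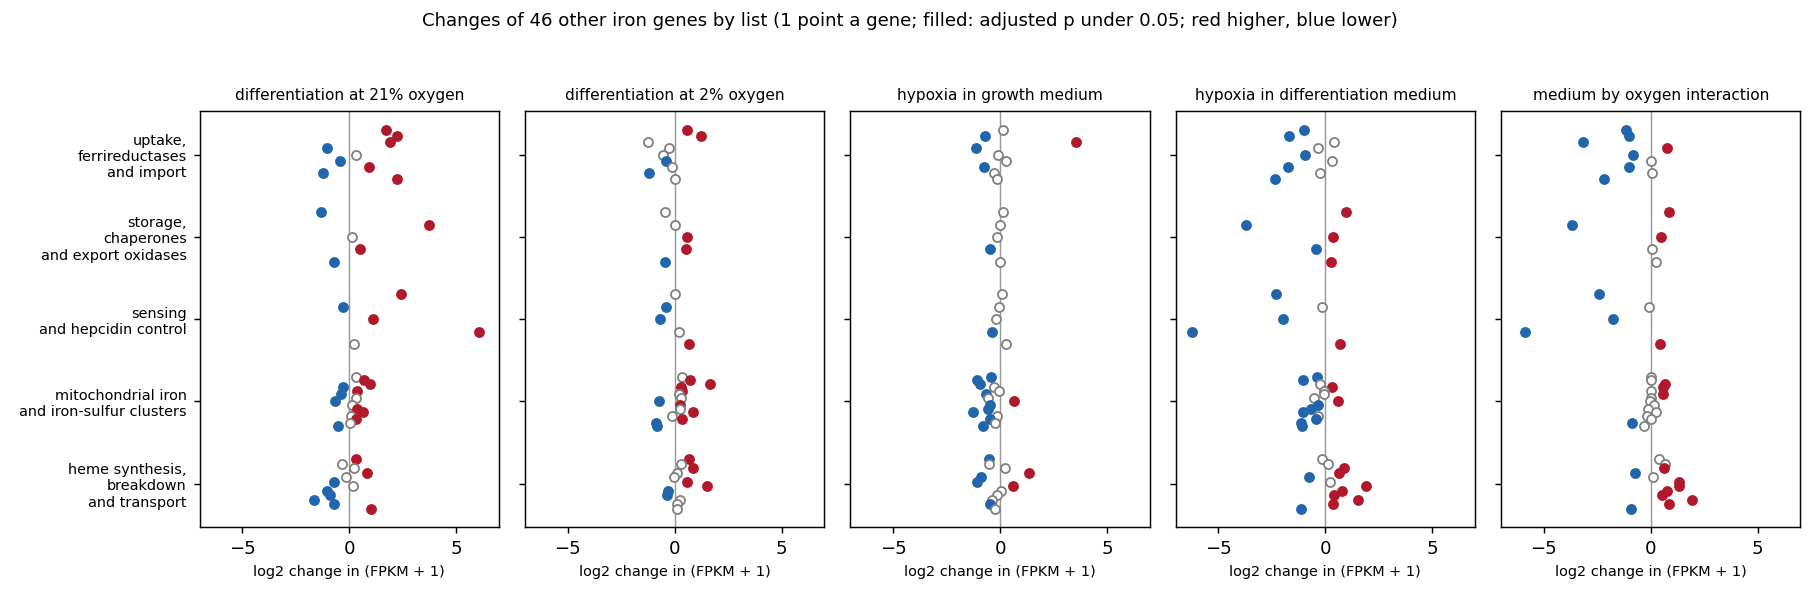
Log2 changes in FPKM + 1 (horizontal axes) of 46 other iron genes in 5 lists (vertical axis) and 5 contrasts, 1 point a gene; filled points passed an adjusted p of 0.05 (red higher, blue lower). In the hypoxia in growth medium panel 9 of the 15 mitochondrial genes are blue and 1 is red; the points beyond 5 in either direction are Hfe2.

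Genes with a similar pattern were looked for by the root-mean-square difference from an iron gene over the 8 libraries, in log2(FPKM + 1) centred on each gene's mean, among 9870 other genes that reached 5 FPKM in some group. The nearest to Tfrc were Pde4dip (0.20), Iars (0.21) and Fads3 (0.22), where Tfrc itself had an SD of 0.90 over the libraries. Iars, an isoleucine tRNA ligase, was 15.2 and 15.8 FPKM in growth medium at 21% oxygen and 39.0 and 38.4 there at 2%, against 74.0 and 75.1 in differentiation medium at 21% and 47.4 and 38.3 there at 2%. The nearest to Fth1, which had an SD of 0.31, were N6amt1 (0.06), Ctns (0.07) and Arpc3 (0.09). Those nearest to Slc40a1 (SD 0.73) were Chpt1 (0.10), Neat1 (0.11) and Grtp1 (0.11). Those nearest to Steap3 (SD 0.79) were Igfbp7 (0.13), Plcb3 (0.13) and St6gal1 (0.14). All are distances between patterns in the same 8 libraries, so shared depth and scaling enter each. FPKM + 1 also understates changes at low levels. Slc40a1, at 0.729 to 6.36 FPKM, can therefore lie near genes with smaller fold changes in FPKM.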

How the data were processed

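Gene expression was measured by strand-specific total RNA-seq, per the labels' protocols, in 8 libraries; the 8 H3K27me3 and 8 input libraries of the series were not analysed here. The authors deposited 1 table of FPKM values with a column for each library, matched to the sample titles, with replicates not pooled. Its name says counts, but the values are not whole. The submitters' processing notes name STAR 2.5.1b, Cufflinks 2.2.1 and mm9; the annotation, the strand setting and whether libraries were scaled to each other are not given in the sources used here. Promoter sequences and their coordinates are RefSeq's on GRCm38.p6.

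From these values limma 3.58.1 (R 4.3.3) was fitted to log2(FPKM + 1) with an intensity trend, in 1 fit of all 8 libraries with 4 group means, for the 12389 genes whose group mean reached 1 FPKM somewhere. There were 4 residual and 2.61 prior degrees of freedom. Tests are two-sided, with Benjamini-Hochberg adjustment over all tested genes of a contrast and 0.05 as the threshold. The procedure was tested on simulated data. With 2 libraries a group, precision is limited, and exact permutation of single genes could not reach the threshold.

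The alternatives were a pseudocount of 0.1, no filter on low values, median-of-ratios and upper-quartile scaling, only the libraries compared, the replicate block and leaving out each library. The iron genes and the lists were chosen with earlier results of these data known. The 9 genes are given in full; of the other lists, the 2 largest rises and 2 largest falls called in each contrast are named, where some group reached 5 FPKM and the libraries compared did not overlap (for the interaction, the same sign from A and B); further names were chosen after their values were seen. One gene that this rule names for the interaction is not reported here. Likeness was computed for Tfrc, Trf, Fth1, Slc40a1 and Steap3, and Trf was too low to enter it. Protein sequences were not analysed here. All 9 symbols were current in the name table.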

Additional observations from a re-analysis of the deposited data

Results flagged for a closer look

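For 6 of the 8 tested iron genes the response to differentiation medium differed between the oxygen levels by the limma interaction test, the change at 2% oxygen minus that at 21%; 54.1% of all genes were called by the same test. After median-of-ratios or upper-quartile scaling 4 of the 8 were called, without Fth1 and Steap3. Ftl1 had the largest value, 3.14 on the log2 scale, from a fall in normoxia and a rise in hypoxia. Fth1 (1.02) and Aco1 (0.93) had the same pair of directions at smaller size. Tfrc had -1.91, a rise in normoxia with no call in hypoxia. Slc40a1 had -1.69, a rise in normoxia and a fall in hypoxia. Steap3 had 0.86, a fall at both oxygen levels, and it passed under 4 of 13 alternatives. The groups at 2% oxygen also differed in muscle markers and, between replicates A and B of hypoxic differentiation medium, in proliferation markers, whose part in these values was not tested.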

How the results depend on the processing

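All libraries and settings are those listed under the processing of the data. With only the libraries compared, differentiation at 2% oxygen called 2867 genes in place of 5073, and 1 iron gene (Ftl1) in place of 6. Leaving out each library in turn gave these ranges of genes called, for all genes and then for the 8 iron genes: 6352 to 9292 and 5 to 7 for differentiation at 21% oxygen, 2501 to 6529 and 2 to 6 for differentiation at 2%, 2997 to 6844 and 3 to 5 for hypoxia in growth medium, 6370 to 8726 and 4 to 6 for hypoxia in differentiation medium, and 5147 to 8066 and 5 to 7 for the interaction. The lows at 2% oxygen and in growth medium came without a hypoxic growth library (2688 without A and 2501 without B; 2997 and 3083), and fewer libraries leave fewer degrees of freedom. The high of 5 iron genes in growth medium came without either hypoxic differentiation library.

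Every change of direction among the iron genes was in a result that was not called. After median-of-ratios scaling, Aco1 with hypoxia in differentiation medium was -0.080 and the Ireb2 interaction -0.30; the latter was -0.21 after upper-quartile scaling. Leaving out libraries gave -0.195 to 0.204 for the Ireb2 interaction, -0.041 to 0.358 for Ireb2 on differentiation at 21% oxygen, -0.019 to 0.345 at 2%, -0.389 to 0.00997 with hypoxia in growth medium, and -0.606 to 0.054 for the Slc11a2 interaction. There were 40 results of iron genes over the 5 contrasts, called or not. A pseudocount of 0.1 changed no call among them. No filter ended 2 calls, median-of-ratios scaling 6 and upper-quartile scaling 4.

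The replicate block, with the letter A or B as a term, changed no call among the 40 results of iron genes. It left the counts of iron genes called at 7, 6, 3, 5 and 6. Over all genes it called 7931, 4453, 4634, 7802 and 6273 in the order above. The labels do not say whether libraries of the same letter belong together. Deviations of same-lettered libraries correlated across genes between -0.17 and 0.04 over the 6 pairs of groups. A letter effect on few genes would not show in such a correlation.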
